A study of Mus musculus with 4 samples.

Results

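The 10 genes described here are the 4 members of the Egr family (Egr1, Egr2, Egr3 and Egr4) and 6 other early response genes (Ier2, Ier3, Ier5, Zfp36, Nr4a1 and Dusp1). They were chosen by gene name, and each has 1 entry among the 27304 entries of the deposited gene tables. Early response genes are transcribed within minutes of a growth factor, stress or calcium signal, without new protein synthesis. Their promoters are typically poised, read by SRF with its ternary complex factors at CArG boxes and by CREB at cAMP response elements, and ERK signalling is a main input. Their transcripts are short-lived, in part through AU-rich elements, and several of the proteins switch the signal off again.

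All 4 libraries came from C57BL/6 mouse embryonic fibroblasts on day 5 of reprogramming with the Sendai virus vector SeVdp(KOSMaB), under selection with 2 µg/mL blasticidin S. The groups were cells expressing Osr2, a zinc finger transcription factor, with 10 µM SB431542; Osr2 cells without it; cells expressing the fluorescent protein Kusabira Orange (control cells) with 10 µM SB431542; and control cells without it. SB431542 inhibits the kinase of type I TGF-β and activin receptors. The design thus asks what Osr2 does to gene expression in reprogramming cells with that signal on or blocked. Each group is 1 library of poly(A) RNA, so there is no estimate of spread and no test, and the transgene, vector and drug were carried by bulk populations in which fewer cells of a type and less RNA per cell cannot be told apart.

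Osr2 itself stood at 13.7 TPM (reads per gene length, scaled to the library's total) in Osr2 cells with SB431542 and 59.1 TPM in Osr2 cells without it, against 0.764 TPM in control cells with SB431542 and 0.890 TPM in control cells without it. The 4 libraries held 1524642, 14254449, 13314806 and 18138724 recovered reads in that order, so values of Osr2 cells with SB431542 rest on the fewest reads. TPM of the entries used summed to 96038, 270168, 452145 and 345864 in the same order. Deposited TPM therefore did not share a common total over these entries, which limits its comparison between libraries. That library also stood apart in its mitochondrially encoded genes, which made up 37.7% of its listed TPM, against 8.67% in Osr2 cells without SB431542, 2.44% in control cells with SB431542 and 6.00% in control cells without it. Its median gene was shifted by -3.05 on the log2 scale from control cells without SB431542, and that of Osr2 cells without SB431542 by -0.80. Differences are of log2(TPM + 1), set relative to the median gene by dividing a library's values by the median of its ratios to control cells without SB431542. Genes that differ by 1 or more in size are called higher or lower, which is a rule of size and not a test. In both cell kinds, 0 entries had fewer reads in the untreated column than in the treated one (of 18064 in control and 16676 in Osr2 cells). Between Osr2 and control cells without SB431542, 13794 entries had fewer reads in Osr2 cells and 4700 had more. The untreated columns thus look as if they include the treated reads, although only numbers of reads are known. If so, SB431542 comparisons without subtraction set a part against its whole. The treated reads amounted to 10.7% of the untreated ones in Osr2 cells and 73.4% in control cells. For that reason the values are also given after read subtraction, which removes the treated reads of the same cells from the untreated column before levels are rebuilt.

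Regulatory sequences of 7 of the 10 genes were in the RefSeq promoter table (build GRCm38.p6, 250 bases before to 50 after each start), and Egr1, Egr3 and Ier2 had no entry. Egr2 has 5 windows in the table, from different start sites. The windows shown are those that hold letters known from inducible promoters, with CArG boxes and the cAMP response element (CRE) half-site TGACG, read on either strand as TGACG or CGTCA, in capitals. Egr4 at chr6:85513669-85513791 (minus strand), Dusp1 at chr17:26508583-26508688 (minus strand), Egr2 at chr10:67537733-67537843 (plus strand), Zfp36 at chr7:28379252-28379311 (minus strand) and Nr4a1 at chr15:101266596-101266835 (plus strand) read, 5′ to 3′:
Egr4: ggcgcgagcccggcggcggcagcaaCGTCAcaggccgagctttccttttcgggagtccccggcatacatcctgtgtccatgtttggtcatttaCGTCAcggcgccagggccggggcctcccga
Dusp1: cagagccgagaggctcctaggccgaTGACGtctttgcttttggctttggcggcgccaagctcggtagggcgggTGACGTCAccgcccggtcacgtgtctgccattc
Egr2: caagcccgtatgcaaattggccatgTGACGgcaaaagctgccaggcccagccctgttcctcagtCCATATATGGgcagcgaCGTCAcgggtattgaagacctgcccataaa
Zfp36: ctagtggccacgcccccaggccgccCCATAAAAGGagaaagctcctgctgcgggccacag
Nr4a1: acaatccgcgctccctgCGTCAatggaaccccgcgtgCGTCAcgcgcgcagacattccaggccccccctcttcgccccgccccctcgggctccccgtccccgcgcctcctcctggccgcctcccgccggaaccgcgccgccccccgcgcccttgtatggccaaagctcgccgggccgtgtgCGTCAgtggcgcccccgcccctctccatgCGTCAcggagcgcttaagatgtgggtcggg

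The half-site TGACG occurred at least 2 times in the windows of Dusp1, Egr4 and Nr4a1 and in 3 of the 5 windows of Egr2, which overlap one another, while 5.04% of 32544 promoter windows of 300 bases held it at least 2 times and 20.9% at least once. Nr4a1 held 4 copies, and 0.234% of all windows held at least 4. The full element TGACGTCA, which contains a half-site on each strand, was in the Dusp1 window and in 1.80% of all windows. A CArG box was in the window of Zfp36 and in 4 of the 5 windows of Egr2, and in 1.64% of all windows. The AP-1 site TGANTCA (7.79% of all windows) and the EGR site GCGTGGGCG (0.618%) matched in none of the 7 genes, and Ier3 and Ier5 matched none of the motifs searched. These matches describe the letters of these windows only.

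The 3′ ends were searched too. The AU-rich heptamer TATTTAT, the core to which Zfp36 binds, occurred 4 times in the 3′UTR of Ier3, 3 times in that of Zfp36 and 3 times in that of Dusp1, and 0 times in the other 7 genes. Each was set against other genes with a 3′UTR at least as long, of which only the first part, cut to the same length, was searched. The share of these with at least 1 heptamer was 12.6% (for the length of Egr4) to 48.2% (for that of Egr3). At least as many copies as in Ier3, Zfp36 and Dusp1 were in 0.189%, 0.727% and 0.640% of them. The later parts of longer 3′UTRs were left out. A site of 30 bases from each, with the heptamers in capitals, reads 5′ to 3′ in DNA letters:
Ier3: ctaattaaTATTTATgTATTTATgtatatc
Zfp36: cccttTATTTATgacgacttTATTTATtgt
Dusp1: ggagctggtcctTATTTATttaacaccccc

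The genes are also compact. In GENCODE M21, 8 of the 10 have 3 exons or fewer, against 25.4% of 21924 protein-coding genes, and 8 of the 10 span under 8 kb, against 29.8%. Egr4 lies at chr6:85511121-85513589 on the minus strand with 2 exons, and Ier5 at chr1:155096361-155099636 on the minus strand as a single exon. Zfp36 overlaps Gm44710 on the opposite strand, and the annotated span of Dusp1 overlaps genes on both strands, so their reads are uncertain to the extent that counting could mix them. The library kit was directional, but the strand setting of the counting is not given in the sources used here.

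In deposited TPM, the order of the 10 genes was broadly shared by the libraries, with Ier5, Ier2 and Egr1 high and Egr2 and Egr3 low. TPM of the 10 ran between 0.326 (Egr3) and 223 (Ier5) in Osr2 cells with SB431542, and between 2.79 (Egr2) and 166 (Ier5) in Osr2 cells without it. In control cells TPM ran between 0.938 (Egr4) and 86.5 (Ier2) with SB431542, and between 0.841 (Egr3) and 88.9 (Ier5) without it. All 10 reached at least 1 TPM in at least 1 library and so passed the filter on low values, Egr3 only through Osr2 cells without SB431542. Egr4 was the gene whose place changed most: it was the lowest of the 10 in control cells with SB431542, while its 25.4 TPM in Osr2 cells with SB431542 was of the same order as Egr1.

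**Figure D1:**
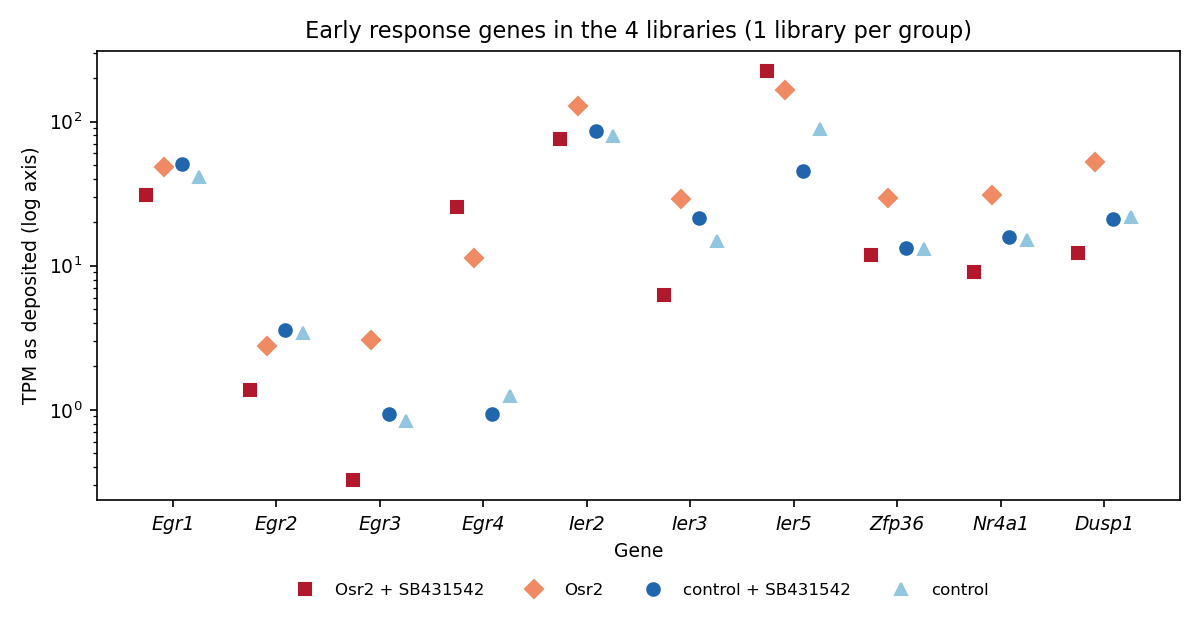
TPM as deposited (log axis) of the 10 genes in Osr2 cells with and without SB431542 and in control cells with and without SB431542, with 1 library per group and so no error bars. Egr4 sits at 25.4 and 11.3 TPM in Osr2 cells and at 0.938 and 1.25 TPM in control cells, while most other genes are lowest in Osr2 cells with SB431542.

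The first comparison set Osr2 cells against control cells, both without SB431542. Relative to the median gene, 9 of the 10 genes were higher in Osr2 cells and 0 lower, Egr2 being the exception, and the median difference was 1.73. Of all 13509 measured genes, 16.6% were higher and 11.4% lower, around a median of -0.021. TPM as deposited put 5 of the 10 higher and 0 lower (7.78% and 30.6% of all genes). Read subtraction left 3 of the 10 higher, namely Egr3, Ier3 and Dusp1, and put Egr4 and Ier5 lower, at a median of 0.68 (17.4% and 12% of all genes). How many of the 10 exceed the size rule thus depends on the scale.

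The second comparison set Osr2 cells against control cells with SB431542 in both. Relative to the median gene, 10 of the 10 genes were higher in Osr2 cells, by 1.14 (Egr3) to 6.98 (Egr4) and with a median of 2.703, where 19.9% of all genes were higher, 27.9% lower and the median was -0.21. In deposited TPM only Egr4 and Ier5 were higher and Ier3 was lower, at a median of -0.63, while 0.348% of all genes were higher and 88.1% lower. Neither library of this pair is an untreated one, and after the subtraction, which changes it only through the scaling, 10 of the 10 were again higher, at a median of 2.63 (18.7% of all genes higher and 27.5% lower). Mitochondrially encoded genes moved the same way: 8 of the 8 measured of 13 were higher, with a median difference of 5.04 (5 higher and 0 lower on deposited TPM), and ND4L, COX2, COX3 and ATP8 were at 0 in both libraries. Genes of 3 exons or fewer were higher more often than others (29.5% of 1650 against 19.4% of 10537). The part of either in the difference of the 10 genes was not tested.

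**Figure D2:**
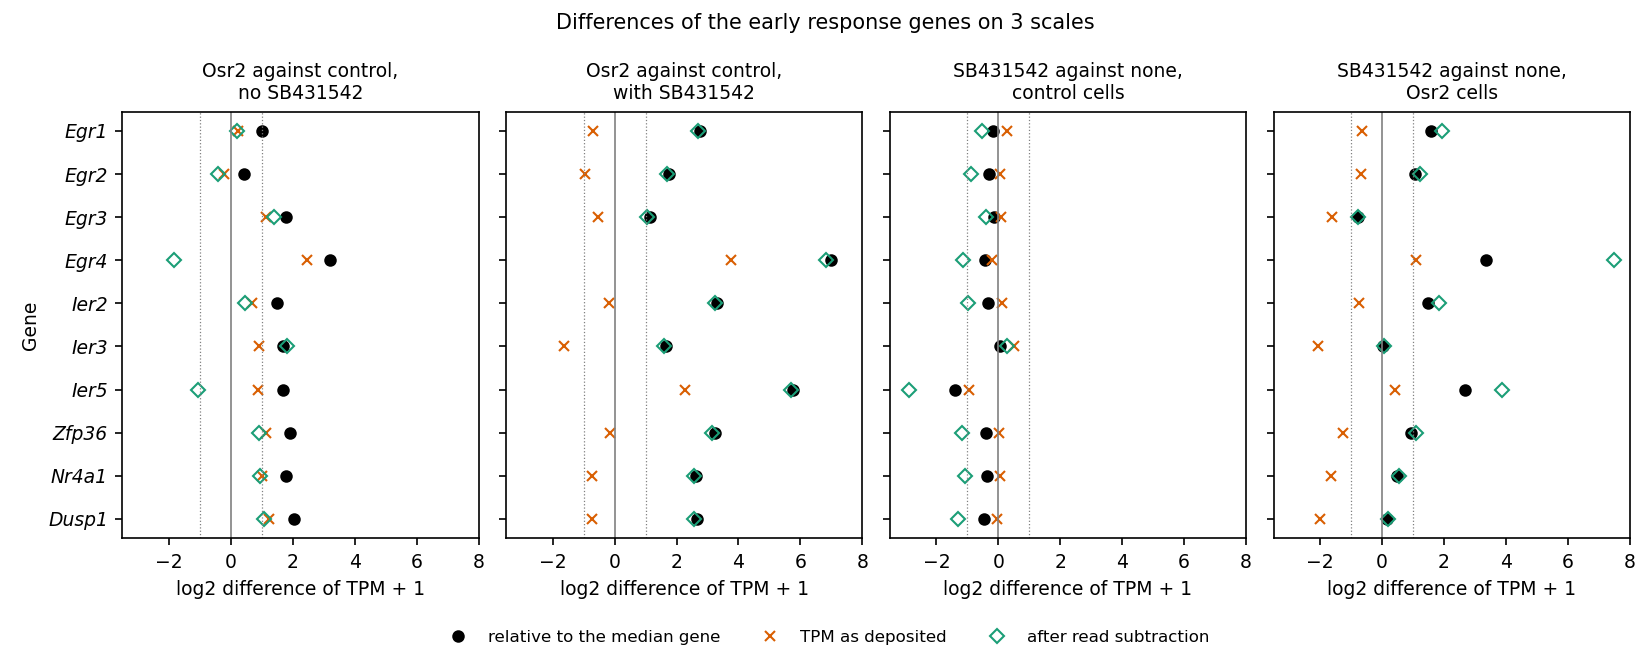
Log2 differences of TPM + 1 of the 10 genes in the 4 comparisons, on 3 scales: relative to the median gene (filled circles), TPM as deposited (crosses) and after read subtraction (open diamonds), with dotted lines at the size rule of 1. With SB431542, Osr2 cells exceed control cells for all 10 genes relative to the median gene (1.14 to 6.98), whereas on TPM as deposited only Egr4 and Ier5 lie past the upper line.

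The other comparisons set SB431542 against none within a cell kind. In control cells 0 of the 10 genes were higher and 1, Ier5, was lower relative to the median gene, at a median of -0.34, where 0% of all genes were higher and 0.577% lower. In deposited TPM 0 were higher and 0 lower (0% and 0.341% of all genes). Treated reads never exceeded the untreated ones, and their median share in control cells was 75.1%. Before subtraction no gene could therefore be called higher in control cells, whatever SB431542 did. Read subtraction put 5 of the 10 lower (Egr4, Ier5, Zfp36, Nr4a1 and Dusp1) and 0 higher, at a median of -1.01 (9.99% of all genes higher and 6.38% lower). In Osr2 cells 5 of the 10 were higher with SB431542 and 0 lower relative to the median gene, at a median of 0.997 (16.5% of all genes higher and 26.7% lower). In deposited TPM Egr4 alone was higher and 5 were lower, at a median of -0.99 (0.118% and 64.1% of all genes). Read subtraction put 6 higher and 0 lower, at a median of 1.16 (18.9% and 26.8%). In the Osr2 cells 8 of the 8 measured mitochondrially encoded genes were higher with SB431542, with a median of 3.04, and 8 of 8 fibroblast markers lower, with a median of -2.82, relative to the median gene. In control cells 7 of the 8 mitochondrially encoded genes were lower, with a median of -1.28. The part of these in the differences of the 10 genes was not tested. The comparisons share libraries, so their values are set side by side and are not independent.

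Read numbers show where the treated reads stand in the untreated columns. In Osr2 cells the treated reads of the 10 genes were 4.79% (Egr3) to 100% (Egr4) of the untreated ones, with a median of 19.9%, beside 9.06% for the median of 7848 genes with a mean of at least 5 TPM. In control cells they were 27.9% (Ier5) to 78.4% (Ier3), with a median of 57.3%, beside 75.1% for the median of 7866 such genes. Of the 10 genes 9 lay above the all-gene median in Osr2 cells, and 9 lay below it in control cells.

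**Figure D3:**
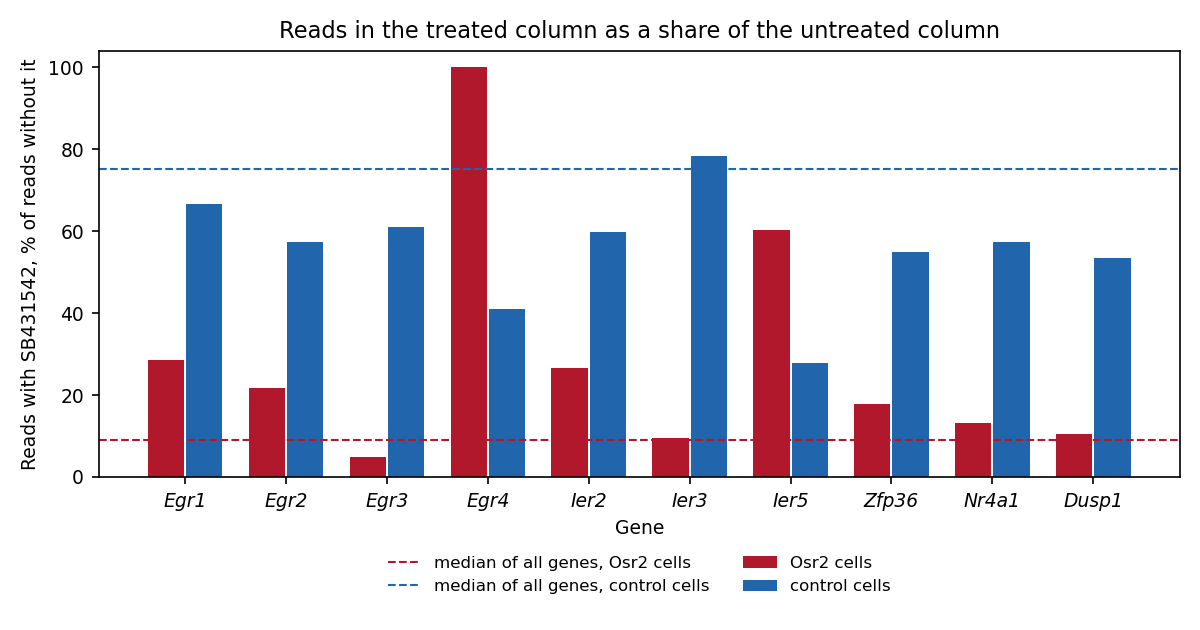
Reads with SB431542 as a percent of reads without it for the 10 genes, in Osr2 cells (red) and control cells (blue), with dashed lines at the medians of all genes of mean TPM of at least 5 (9.06% and 75.1%). Egr4 reaches 100% in Osr2 cells and 41.0% in control cells, and Ier5 has the lowest share of the 10 in control cells, 27.9%.

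Egr1 encodes a zinc finger factor induced by serum and growth factors, and is a widely used reporter of ERK-driven transcription. It had 30.8 TPM (863 reads) in Osr2 cells with SB431542, 48.2 TPM (3034 reads) in Osr2 cells without it, 50.7 TPM (1806 reads) in control cells with SB431542 and 41.4 TPM (2707 reads) in control cells without it. The deposited values lie close together and overlap between Osr2 and control cells. Egr1 reads, relative to the median gene, were 6.93 times as many in Osr2 as in control cells with SB431542 (exact 95% counting interval 6.38 to 7.52) and 2.03 times as many without it (1.92 to 2.14). Such intervals cover counting error only, not the spread between cultures. The log2 difference without SB431542 was 1.00 and fell short of the size rule after read subtraction, at 0.21. Between Osr2 cells with and without SB431542 the difference was 1.59 relative to the median gene and -0.63 on TPM as deposited.

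Egr2, also called Krox20 and known for hindbrain patterning and Schwann cell myelination, was among the lowest of the 10. It had 1.36 TPM (29 reads) in Osr2 cells with SB431542, 2.79 TPM (133 reads) in Osr2 cells without it, 3.59 TPM (97 reads) in control cells with SB431542 and 3.41 TPM (169 reads) in control cells without it. The window shown above holds a CArG box between a pair of CRE half-sites. Relative to the median gene, Egr2 was the only one of the 10 that did not pass the size rule in Osr2 against control cells without SB431542, with a difference of 0.41. That difference was -0.22 on deposited TPM and -0.43 after read subtraction, so its sign depends on the scale. With SB431542 its reads were 4.33 times as many in Osr2 cells relative to the median gene (2.76 to 6.62).

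Egr3, which acts in muscle spindle development and lymphocytes, had 0.326 TPM in Osr2 cells with SB431542, 3.04 TPM in Osr2 cells without it, 0.943 TPM in control cells with SB431542 and 0.841 TPM in control cells without it. These rest on 9, 188, 33 and 54 reads in the same order. Only Osr2 cells without SB431542 stood above 1 TPM. Without SB431542 Egr3 differed by 1.77 between Osr2 and control cells relative to the median gene, by 1.13 in deposited TPM and by 1.40 after subtraction, so it passed the size rule on all 3 scales. Between Osr2 cells with and without SB431542 its difference was -0.76, and it was the only one of the 10 with a negative value relative to the median gene. The 9 reads in Osr2 cells with SB431542 leave a wide interval, 1.66 to 8.44, around its ratio of 3.95 to control cells with SB431542.

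Egr4, best known from neurons and male germ cells, gave the largest differences of the 10 relative to the median gene, except for SB431542 in control cells, where Ier5 did. Its promoter window holds 2 CRE half-sites. It had 25.4 TPM in Osr2 cells with SB431542, 11.3 TPM in Osr2 cells without it, 0.938 TPM in control cells with SB431542 and 1.25 TPM in control cells without it. On deposited TPM both Osr2 columns lay above both control columns. Both Osr2 columns held 342 reads of Egr4, however, so they may not be separate observations. With SB431542 the difference of 6.98 between Osr2 and control cells ranked 1st of 13509 measured genes relative to the median gene, and it was 3.77 on TPM as deposited. The ratio of reads was 309.8 (188 to 548), from 342 reads in Osr2 cells and 16 in control cells.

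The Egr4 reads of the Osr2 cells bear on its untreated value. Both Osr2 columns held exactly 342 reads of Egr4, so that read subtraction leaves 0 in Osr2 cells without SB431542. Of 7848 genes with a mean of at least 5 TPM, 16 had equal reads in the Osr2 columns. None had a larger treated share, so before subtraction the Egr4 read ratio for SB431542 in Osr2 cells was at its upper limit. Before subtraction Egr4 was higher in Osr2 than in control cells without SB431542 by 3.21 relative to the median gene, but afterwards the difference was -1.83. After subtraction, setting 0 reads to a floor of 3 reads per library gives a ratio of 1123 for Osr2 cells with SB431542 over those without it, and the exact 95% counting interval reaches down to 908. Likewise Egr4 was 16.0-fold lower in Osr2 than in control cells without SB431542 at that floor, and 11.98-fold lower at the near end of the interval. The comparison of Osr2 with control cells with SB431542 does not depend on the subtraction, apart from its scaling, and stood at 6.81 there.

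**Figure D4:**
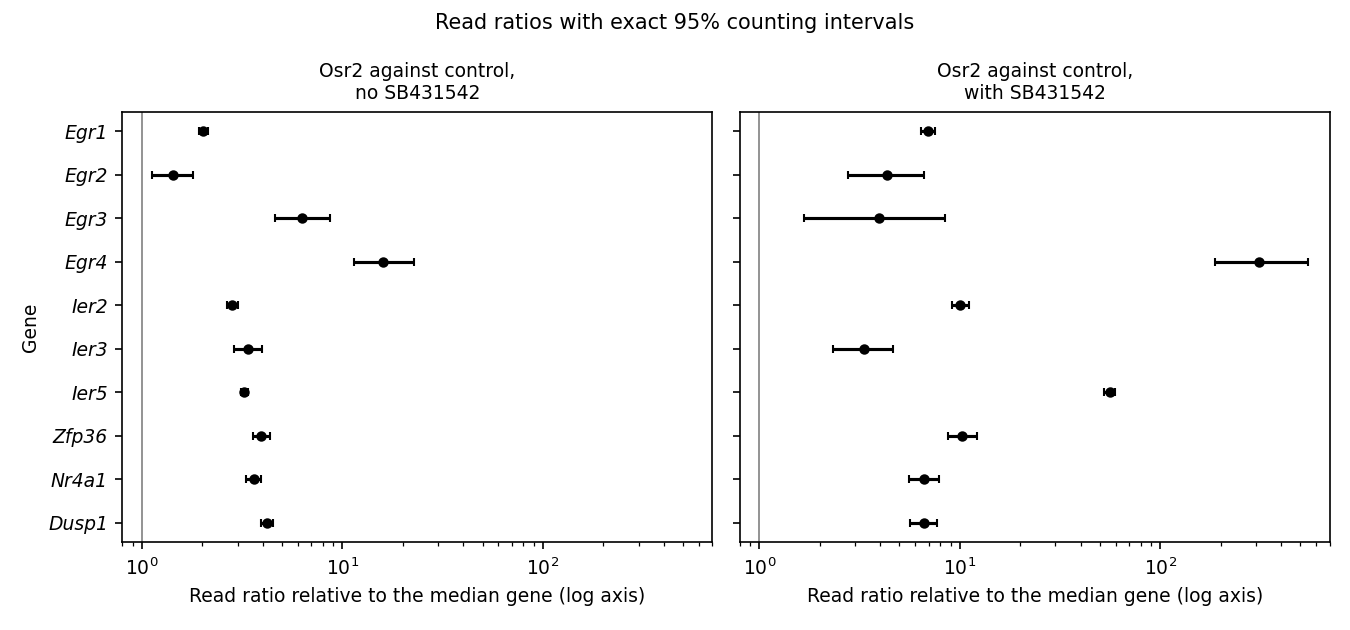
Ratios of reads in Osr2 cells over control cells relative to the median gene (log axis), without and with SB431542, for the 10 genes, with bars for exact 95% counting intervals that cover counting error only. With SB431542 Egr4 (309.8) and Ier5 (56.0) stand far above the other 8 genes, which lie between 3.32 and 10.3.

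Ier2, a nuclear protein induced by serum, was high in every library. It had 76.2 TPM (726 reads) in Osr2 cells with SB431542, 128 TPM (2731 reads) in Osr2 cells without it, 86.5 TPM (1046 reads) in control cells with SB431542 and 78.7 TPM (1747 reads) in control cells without it. The highest value thus lay in Osr2 cells without SB431542 and the other 3 were within a narrow range. Ier2 differed relative to the median gene by 3.31 between Osr2 and control cells with SB431542 and by 1.49 without it, or 0.45 after read subtraction. Its difference with SB431542 was -0.18 in deposited TPM.

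Ier3, an early response gene linked to cell survival and to ERK feedback, has the most AU-rich heptamers of the 10. It had 6.22 TPM (44 reads) in Osr2 cells with SB431542, 28.9 TPM (459 reads) in Osr2 cells without it, 21.4 TPM (192 reads) in control cells with SB431542 and 14.9 TPM (245 reads) in control cells without it. Its Osr2 excess was about equal without and with SB431542, 1.69 and 1.67, and SB431542 moved it by 0.033 in Osr2 cells and by 0.058 in control cells relative to the median gene. On deposited TPM these were 0.92 without and -1.63 with SB431542 for Osr2 against control cells, and -2.05 in Osr2 cells and 0.50 in control cells for SB431542. Of the 10 genes Ier3 lay closest to the median gene in the SB431542 comparisons, with a read ratio after subtraction of 1.04 in Osr2 cells (0.747 to 1.43) and 1.23 in control cells (0.906 to 1.71). After read subtraction its difference of Osr2 from control cells without SB431542 was 1.82, the largest positive value of the 10 on the log2(TPM + 1) scale, while Egr3 had the larger ratio of reads there, 4.09 against 3.76 for Ier3.

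Ier5, a regulator of heat shock factor and of phosphatase activity, moved in opposite directions with SB431542. It had 223 TPM (4580 reads) in Osr2 cells with SB431542, 166 TPM (7612 reads) in Osr2 cells without it, 45.6 TPM (1186 reads) in control cells with SB431542 and 88.9 TPM (4248 reads) in control cells without it. Osr2 cells stood above control cells in both pairs, and the highest level was in Osr2 cells with SB431542. Levels with SB431542 differed from those without it by 2.68 in Osr2 cells and by -1.40 in control cells relative to the median gene, and by 0.43 and -0.95 in deposited TPM. With SB431542 the Osr2 excess was 5.76, which ranked 8th of 13509 genes, and the ratio of reads was 56.0 (52.5 to 59.7).

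The Ier5 difference without SB431542 changed sign with the subtraction. It was 1.69 relative to the median gene, from 7612 and 4248 reads in Osr2 and control cells, and -1.07 after it, from 3032 and 3062 reads left. Ier5 was not alone: the early response genes Gadd45g (1.30 and -1.68) and Maff (1.36 and -1.15) changed sign too. Of 39 other early response genes 18 were higher and 2 lower before subtraction, and 9 and 9 after it. The median of 8 mitochondrially encoded genes was 0.66 before and -3.19 after. In control cells Ier5 differed by -2.88 with SB431542 on the subtracted scale, at 0.132 times the reads (0.123 to 0.141). In Osr2 cells it had 14.9 times the reads with SB431542 on that scale (14.2 to 15.6). The sign within control cells was thus negative, and within Osr2 cells positive, on all 3 scales.

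Zfp36, or tristetraprolin, binds AU-rich elements and speeds the decay of transcripts that carry them, its own included. It had 11.9 TPM (259 reads) in Osr2 cells with SB431542, 29.7 TPM (1445 reads) in Osr2 cells without it, 13.2 TPM (364 reads) in control cells with SB431542 and 13.1 TPM (662 reads) in control cells without it. Only Osr2 cells without SB431542 stood apart on TPM as deposited, at 1.12 above control cells. The Osr2 excess relative to the median gene was 3.24 with SB431542 and 1.90 without it, or 0.90 after read subtraction.

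Nr4a1, an orphan nuclear receptor also called Nur77, had 9.11 TPM (200 reads) in Osr2 cells with SB431542, 31.0 TPM (1525 reads) in Osr2 cells without it, 15.7 TPM (438 reads) in control cells with SB431542 and 14.95 TPM (765 reads) in control cells without it. It followed Zfp36 in having its highest TPM in Osr2 cells without SB431542. Its read ratio of Osr2 over control cells was 6.62 with SB431542 (5.57 to 7.84) and 3.61 without it (3.30 to 3.94), or 1.94 after read subtraction (1.72 to 2.20). The log2 difference after subtraction was 0.93, just under the size rule.

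Dusp1 encodes a nuclear phosphatase that inactivates p38, JNK and ERK and so closes the loop on the pathways that induce it. It had 12.3 TPM (254 reads) in Osr2 cells with SB431542, 52.3 TPM (2431 reads) in Osr2 cells without it, 21.2 TPM (557 reads) in control cells with SB431542 and 21.6 TPM (1044 reads) in control cells without it. Without SB431542 it passed the size rule on all 3 scales, with an Osr2 excess of 2.02 relative to the median gene, 1.24 in deposited TPM and 1.08 after subtraction. With SB431542 the difference was 2.65, and -0.74 on TPM as deposited. It is the gene of the 10 with a full CRE in its window. Its SB431542 difference in Osr2 cells was 0.16, near that of the median gene.

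The members can be ordered by how they stood in Osr2 cells. Egr4 and Ier5 had their highest TPM in Osr2 cells with SB431542. Egr3, Ier2, Ier3, Zfp36, Nr4a1 and Dusp1 had it in Osr2 cells without SB431542, and Egr1 and Egr2 in control cells with SB431542. Among 7860 genes of mean TPM of at least 5, those nearest to the median profile of the 10 included Socs5, Tesk1, Man1a, Aebp1, Sumf1, Rnf11, Loxl4, Tgfb1 and Clba1, by the Euclidean distance over 3 log2 differences from control cells without SB431542. Their distances were 0.104 (Socs5) to 0.348 (Clba1). Nr4a1 was the nearest of the 10 to their own median profile, at 0.174, and Egr4 the farthest, at 4.39.

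Other early response genes, a list of 40 of which 39 were measured, were counted by the same rule. The shares of all genes apply to this list and those below. In Osr2 against control cells with SB431542, 19.9% of all genes were higher and 27.9% lower (0.348% and 88.1% on deposited TPM). Without SB431542 these shares were 16.6% and 11.4% (7.78% and 30.6% on deposited TPM, 17.4% and 12% after read subtraction). Of the 39 genes, 30 were higher and 0 lower in Osr2 than in control cells with SB431542 relative to the median gene. On deposited TPM 3 were higher and 20 lower. Without SB431542 18 were higher and 2 lower (8 and 5 on deposited TPM, 9 and 9 after read subtraction). SB431542 against none gave 21 higher and 4 lower in Osr2 cells (0 and 20 on deposited TPM), and 0 higher and 2 lower in control cells (0 and 18 after read subtraction). The shares of all genes in Osr2 cells were 16.5% and 26.7% (0.118% and 64.1% on deposited TPM). In control cells they were 0% and 0.577% (9.99% and 6.38% after read subtraction), and before subtraction no gene could be called higher there. Gadd45g, a stress-induced growth arrest protein, had 532 TPM in Osr2 cells with SB431542, 361 TPM in Osr2 cells without it, 127 TPM in control cells with SB431542 and 254 TPM in control cells without it, and a log2 difference of 5.56 between Osr2 and control cells with SB431542. Maff, a small Maf factor, differed by 4.87 and Klf2, a Krüppel-like factor, by 4.79 in that comparison. Klf10 and Btg1 had the smallest values of the list, -0.062 and -0.41, so they were not higher in Osr2 cells with SB431542.

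The paralogs of the 10 genes gave 6 of 8 higher and 0 lower in Osr2 against control cells with SB431542 (0 and 5 on deposited TPM). Without it 4 were higher and 0 lower (2 and 1 on deposited TPM, 2 and 2 after read subtraction). Ier5l, the paralog of Ier5, differed by 4.03 with SB431542. Zfp36l1, a paralog of Zfp36, differed by 0.12 and Nr4a2, a paralog of Nr4a1, by 0.55, below the size rule. Of 16 phosphatases and Sprouty or Spred proteins that restrain the MAPK pathway, 11 were higher and 0 lower with SB431542 (0 and 12 on deposited TPM). Without it 7 were higher and 1 lower (3 and 5 on deposited TPM, 5 and 3 after read subtraction). Spry1, an inhibitor of receptor tyrosine kinase signalling, differed by 3.38 and 2.96 in these comparisons, while Dusp14 stood at -0.43 and -1.45. After read subtraction their values without SB431542 were 2.07 and -1.17.

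Upstream components were counted next. Of 12 measured regulators of early response genes, 6 were higher and 2 lower in Osr2 against control cells with SB431542 (0 and 11 on deposited TPM). Without it 3 were higher and 0 lower (2 and 1 on deposited TPM, 2 and 0 after read subtraction). Nab2, a corepressor that EGR factors induce and that binds them, differed by 2.66 with SB431542 and 2.27 without it, and Srf by 2.24 and 0.96. After read subtraction the values without SB431542 were 1.17 for Nab2 and 0.15 for Srf. Mrtfb, an SRF coactivator, stood at -2.58 with SB431542. Of 18 members of the ERK cascade 4 were higher and 4 lower with SB431542 (0 and 17 on deposited TPM), with Sos1, a Ras activator, at 2.59. These counts lie near the shares of all genes, 19.9% and 27.9% (0.348% and 88.1% on deposited TPM). Without SB431542 2 of the 18 were higher and 2 lower (1 and 6 on deposited TPM, 2 and 2 after read subtraction).

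Downstream, 14 genes known as targets of EGR factors gave 12 higher and 1 lower in Osr2 against control cells with SB431542. On deposited TPM 0 were higher and 7 lower, where 88.1% of all genes were lower. Without SB431542 10 were higher and 1 lower (8 and 1 on deposited TPM, 8 and 2 after read subtraction). Several of the 14 belong to extracellular matrix or TGF-β biology. Col1a2 had 52.5 TPM in Osr2 cells with SB431542, 1407 TPM in Osr2 cells without it, 88.3 TPM in control cells with SB431542 and 150.4 TPM in control cells without it. It is also a fibroblast marker, and all 8 such markers were higher in Osr2 than in control cells without SB431542 relative to the median gene, with summed TPM of 7810 against 939. SB431542 against none in Osr2 cells gave 2 higher and 7 lower of the 14 (0 and 11 on deposited TPM), with Fn1 at -3.62. Of 10 transcripts with AU-rich elements on which Zfp36 is known to act, 7 were measured, and Csf2, Il6 and Il1b were not. With SB431542 4 were higher and 1 lower in Osr2 than in control cells (0 and 5 on deposited TPM), Cxcl2 at 4.02 and Ccl2 at -2.85. Ier3, itself 1 of the 10 genes, is in this list and among those higher. Without SB431542 1 was higher and 2 lower (0 and 3 on deposited TPM, 1 and 2 after read subtraction).

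**Figure D5:**
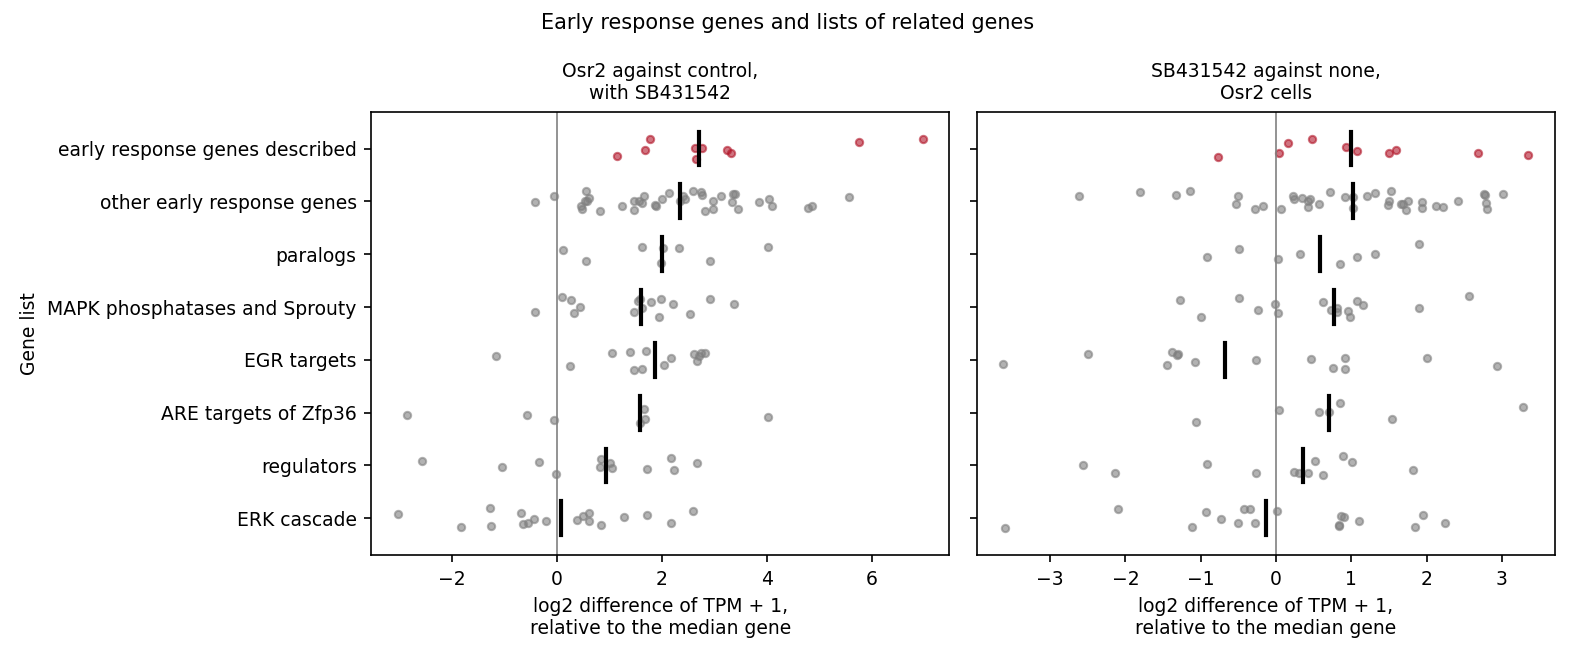
Log2 differences of TPM + 1 relative to the median gene for each measured gene (points) of the 10 early response genes (red) and 7 lists of related genes (grey), with vertical bars at list medians, for Osr2 against control cells with SB431542 and for SB431542 against none in Osr2 cells. Medians in the first panel are 2.703 for the 10 genes, 2.34 for other early response genes and 0.083 for the ERK cascade; EGR targets have a median of -0.68 in the second. On deposited TPM the medians of all 8 lists in the first panel are below 0, the 10 genes at -0.63 and the ERK cascade at -2.77. Ier3 appears both among the 10 genes and among the AU-rich targets of Zfp36.

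Markers of cell types that the cultures could hold were read from marker lists. Fibroblast markers were present, with Lum at 0 in Osr2 cells with SB431542, and had summed TPM of 379 in Osr2 cells and 570 in control cells with SB431542. In that pair 4 of the 8 were higher and 1 lower in Osr2 cells relative to the median gene, at a median of 0.90 (0 and 5 on deposited TPM). Of 8 pluripotent cell markers only Nr0b1 reached 1 TPM in any library. Summed TPM of 8 macrophage markers was 15.9 in Osr2 cells and 31.0 in control cells with SB431542, and 68.7 in Osr2 cells and 22.0 in control cells without it. Of the 7 measured, 3 were higher and 1 lower in Osr2 than in control cells with SB431542 (2 and 4 on deposited TPM; C1qb at 4.74, Lyz2 at -2.26) and 6 were higher without it, and Ptprc did not reach 1 TPM. Endothelial and epithelial markers summed to 0.444 and 1.26 TPM in Osr2 cells with SB431542, 5.10 and 2.15 TPM in Osr2 cells without it, 14.5 and 14.8 TPM in control cells with SB431542 and 9.27 and 11.5 TPM in control cells without it. Of 3 measured epithelial markers, 3 were lower in Osr2 than in control cells without SB431542 and 1 with it, relative to the median gene. Pecam1, Cdh5, Tie1, Epcam and Krt18 were at 0 in Osr2 cells with SB431542, the library with the fewest reads. Cdh5 was at 0 in all 4 libraries, and Pecam1, Tie1 and Krt18 reached 1 TPM in none. Epcam had 2 reads in Osr2 cells without SB431542. The part of these cells in the differences of the early response genes was not tested.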

How the data were processed

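The submitters prepared poly(A) libraries with a directional kit from RNA isolated with ISOGEN, per the labels' protocols. Per the series' design text, reads from a NovaSeq 6000 were mapped to GRCm38.p6 with STAR 2.7.3a at default settings, counted per gene with featureCounts 2.0.0 on an Ensembl 75 gene model and deposited by the authors as TPM. Another 4 columns matched no sample and were not used. Of 27304 entries, 26 with dates for names and 469 with repeated symbols were left out.

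Whole reads were recovered from the 4 deposited TPM columns for 18786 of 18787 entries above 0 (within 0.001 of a whole number). The read scale came from GENCODE M21, with which 18119 of 18142 recovered gene lengths (99.9%) were equal, all 10 members included. On data simulated for the 4 libraries with these same gene lengths, reads of 100% of 17313 entries were recovered exactly. Because the lengths were shared, that run could not test the choice of gene model. A measured gene had at least 1 TPM in at least 1 library. Scaling to the median gene used 7867 genes with a mean of 5 TPM or more, and differences were taken of log2(TPM + 1), which understates changes of low genes. For read subtraction, TPM was rebuilt so that the listed genes kept their deposited sum, and scaled again over 7680 genes. Genes are named if they are members, or the 3 largest and 2 smallest of a list in Osr2 against control cells with SB431542, or cell type markers, or the 10 nearest the members' median profile; some of these are not reported here. With 1 library per group no test was run, and no p-value is given. The members, lists and rules were chosen with earlier results of these data known, and the comparison by exon number was chosen after seeing the data. Python 3.11.15, numpy 2.4.6, pandas 2.3.3 and scipy 1.17.1 were used.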

Additional observations from a re-analysis of the deposited data

Results flagged for a closer look

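The response of Ier5 to SB431542 had opposite signs in Osr2 and control cells. Before read subtraction and relative to the median gene, Ier5 was the one of the 10 genes past the size rule in both. Relative to the median gene SB431542 against none was 2.68 in Osr2 cells and -1.40 in control cells, a difference between them of 4.08. On TPM as deposited the values were 0.43 and -0.95, and after read subtraction 3.88 and -2.88. Egr1, Egr2, Ier2, Zfp36, Nr4a1 and Dusp1 shared these signs relative to the median gene and after read subtraction. On deposited TPM their values in Osr2 cells were negative. Egr3 and Ier3 did not have opposite signs relative to the median gene or after subtraction. After subtraction Zfp36 (1.09 and -1.17) and Egr4 were past the size rule in both cell kinds too. Egr4 had opposite signs on all 3 scales, 3.35 and -0.42 relative to the median gene, 1.10 and -0.21 on deposited TPM and 7.50 and -1.15 after subtraction. So did Gadd45g, at 2.81 and -1.45, 0.56 and -0.996, and 4.22 and -2.96 in the same order. Mitochondrially encoded genes moved in the same directions, with relative medians of 3.04 in Osr2 cells and -1.28 in control cells, and their ND6 had 2.68 and -1.46, 0.43 and -0.995, and 3.90 and -2.96. With 1 library per group the difference was not tested, nor was the part of the mitochondrially encoded genes.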

How the results depend on the processing

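No paired analysis was possible because each group has 1 library, and for the same reason no library could be left out. Of 8 alternatives, TPM as deposited and read subtraction moved most values. On TPM as deposited, in Osr2 against control cells with SB431542, 2 members were higher and 1 was lower, at a median of -0.63, and Egr1 (-0.70), Egr2 (-0.96), Egr3 (-0.55), Ier2 (-0.18), Ier3 (-1.63), Zfp36 (-0.14), Nr4a1 (-0.73) and Dusp1 (-0.74) changed sign. Without SB431542 5 were higher, with a median of 0.96. SB431542 against none in Osr2 cells gave 1 higher, 5 lower and a median of -0.99, with Egr1 (-0.63), Egr2 (-0.68) and Ier2 (-0.74) reversed among genes past the size rule, and Ier3 (-2.05), Zfp36 (-1.25), Nr4a1 (-1.66) and Dusp1 (-2.01), which were under it, also negative, and in control cells 0 lower and a median of 0.063. Read subtraction gave 3 higher, 2 lower and a median of 0.68 in Osr2 against control cells without SB431542. There Egr4 (-1.83) and Ier5 (-1.07) reversed among genes past the size rule, and Egr2 (-0.43), which was under it, was also negative. For SB431542 in control cells it gave 5 lower and a median of -1.01. The reversals on TPM as deposited arise from the shift of the median gene, -3.51 in Osr2 against control cells with SB431542 and -2.25 between the Osr2 libraries. A filter of 5 TPM left 8 members, with medians of 2.998 in Osr2 against control cells with SB431542 and 1.21 for SB431542 in Osr2 cells, since Egr2 and Egr3 drop out. A pseudocount of 5 gave a median of 1.52 without SB431542. Of the 40 single differences, 37 stayed near their values with a pseudocount of 0.1, 37 as ratios of reads, 26 with a pseudocount of 5 and 35 with scaling by genes averaging 50 TPM or more, and none of these reversed. Depth limits Osr2 cells with SB431542 most, where Egr3 rests on 9 reads. Separately, 9038 genes had at least 20 reads foreseen there from control cells with SB431542, scaled to the smaller total, and 175 of them had 0. That number already allows for depth and so is not a measure of it, and what lies behind it was not tested.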

Other observations

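The 16 genes with a mean of 5 TPM or more and equal reads in Osr2 cells with and without SB431542 include, besides Egr4, Nr0b1 with 105 reads in each, Adamts19 with 252, Slain1 with 180 and Mir132, a microRNA gene induced by CREB, with 16 in each. In control cells Nr0b1 had 1325 reads with SB431542 and 1773 without it, and Mir132 had 2 and 7. These 4 were picked after their values were seen.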
